A study of Mus musculus with 29 samples.

Results

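The transcription factors Nkx2-1, Foxa1, Foxa2, Gata6, Cebpa, Etv5, Sox9, Id2, Elf3 and Grhl2 form a set of 10 regulators of the lung epithelium. They were taken by gene symbol, and they and the gene lists below were chosen with earlier results of these data known. Of the 10 genes, 9 were found among the 22779 NCBI gene IDs of the expression matrix, each on 1 line, and Nkx2-1 was not analysed here. Alveolar septa, the walls between air spaces, had been taken by laser capture from frozen lung of 29 wild-type C57BL/6 mice, and RNA depleted of ribosomal RNA was sequenced for each animal separately. All groups share this strain and genotype and differ in age, and by the labels also in their balance of sexes: the late alveolar group holds 7 females and 2 males, and each of the other groups as many females as males. The prenatal group holds 4 animals (2 at E16.5 and 2 at E18.5), the postnatal saccular group 8 (2 at each of P0.5, P1, P1.5, P2.5), the early alveolar group 8 (2 each at P4, P5, P7 and P10) and the late alveolar group 9 (2 each at P13.5, P15, P19 and P23, and 1 at P28), where E counts days after conception and P days after birth. Values are FPKM, in which the fragments of a gene are divided by transcript length and library size, so that levels of different genes can be set side by side per length.

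In the embryonic lung the growing tips of the epithelial tree hold Sox9 and Id2, and the FGF-responsive ETS factor Etv5 is active with them, while tip cells keep dividing and have not yet taken a final cell type. Near birth the distal epithelium turns into flat type 1 cells, which exchange gas, and cuboidal type 2 cells, which secrete surfactant. Nkx2-1, Foxa1, Foxa2, Gata6 and Cebpa act on enhancers and promoters of surfactant genes in this change, and Grhl2 and Elf3 maintain the junctions and the differentiated state of the epithelial sheet. Several of the factors also act elsewhere: Gata6 in heart muscle and smooth muscle, Sox9 in cartilage, Cebpa in myeloid cells and Id2 in many cell types.

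The defining markers of both alveolar cell types were present: the type 2 marker Sftpc reached a median of 8807 FPKM in the prenatal group and 13227 FPKM in the postnatal saccular group, and Ager of type 1 cells a median of 131 and 535.8 FPKM. Total FPKM ranged from 318176 to 457706 per library, and 10114 to 13059 genes reached an FPKM of 1; read depth is unknown. Among 8621 coding genes with a median of at least 5 FPKM, 416 were listed at 0 in P10 pup a, 577 in P19 pup d and 242 in P19 pup f, against 1 to 112 in the other 26 libraries, and an exact 0 may therefore stand for an estimate that failed. The sections were cut widely around alveolar areas and away from large vessels and bronchi, yet airway genes were present in every group, with 7 to 9 of 9 markers above 0 in at least 1 library of each group and a summed level of 210.1 to 5891 FPKM per library. In GRCm38 coordinates the genes lie on chromosome 12 (Foxa1, 57540628 to 57548029, and Id2, 25093799 to 25096092), chromosome 2 (Foxa2, 148042877 to 148046969), chromosome 18 (Gata6, 11052510 to 11085636), chromosome 7 (Cebpa, 35119293 to 35121928), chromosome 16 (Etv5, 22381313 to 22439570), chromosome 11 (Sox9, 112782210 to 112787757), chromosome 1 (Elf3, 135253574 to 135258472) and chromosome 15 (Grhl2, 37232821 to 37363569). Annotated genes overlap 3 of them: Ttc6 overlaps Foxa1, the noncoding Gata6os overlaps Gata6 and the noncoding Gm16136 overlaps Grhl2. Since the use of strand in the quantification is not given in the sources used here, reads of these partners may enter the values.

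The 9 factors spanned more than an order of magnitude in level. Id2, which blocks DNA binding by bHLH factors, had a median of 50.55 FPKM over the 29 libraries and was the highest of the 9 in 26 of them. Etv5 followed with 24.8 FPKM, was second in 23 libraries and first in the 3 where Id2 was not. The forkhead factor Foxa2 (14.21 FPKM), the leucine zipper factor Cebpa (13.8 FPKM), the zinc finger factor Gata6 (12.81 FPKM) and the forkhead factor Foxa1 (9.963 FPKM) formed a middle group. By their means Cebpa stood next to Foxa2 and Foxa2 next to Gata6, with a mean log2 difference of 0.14 ± 0.97 and 0.10 ± 0.97 (SD, n = 29 libraries). Both values include P10 pup a, where Foxa2 was listed at 0. Cebpa was above Foxa2 in 13 libraries and Foxa2 above Gata6 in 21, and neither order was tested. Grhl2 (5.473 FPKM), Elf3 (4.01 FPKM) and Sox9 (2.148 FPKM) were the lowest. Sox9 was last of the 9 in 23 libraries and Elf3 in 5. Every library held Foxa1, Gata6, Cebpa, Etv5, Id2 and Grhl2 at an FPKM of at least 1, whereas Foxa2 and Elf3 were listed at 0 in P10 pup a and Sox9 in P19 pup d and P28 pup c.

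**Figure D1:**
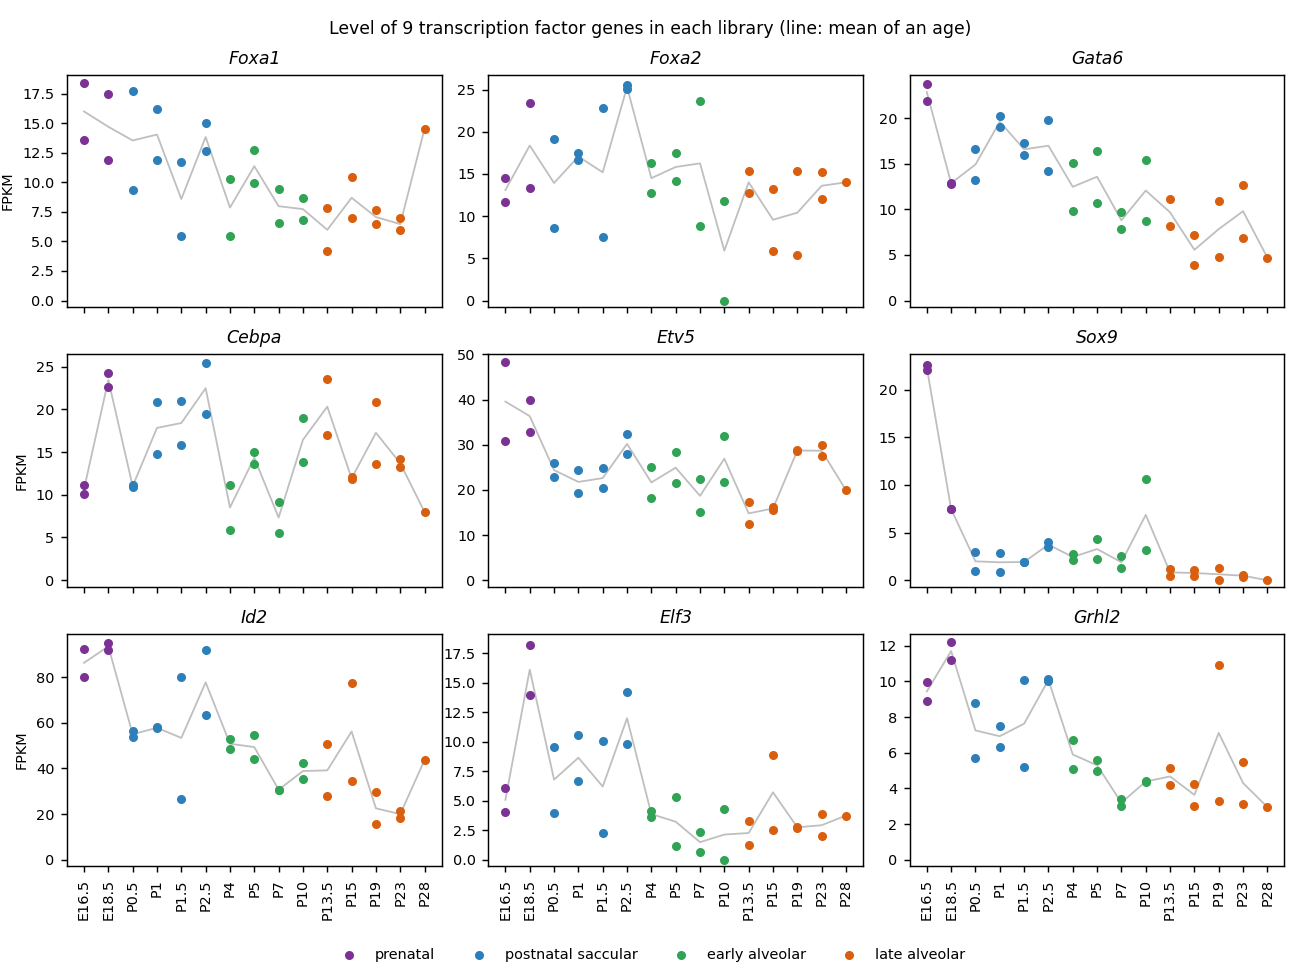
FPKM of each of the 9 genes (y axis, linear, 1 panel per gene) in each of the 29 libraries by age (x axis, 15 ages in order, not to scale in time); points are animals coloured by stage group and the grey line joins the means of the ages. Sox9 stands at 22.6 and 22.07 FPKM at E16.5 and at or below 1.255 FPKM in all late alveolar libraries, while the age means of Cebpa lie between 7.334 and 23.45 FPKM.

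Sequence at start sites is shown for 4 of the factors, and Sox9 and Gata6 are not among them. The RefSeq table of GRCm38.p6 promoters, each 250 bases before to 50 bases after a start, held 6 of the 9 genes: Elf3, Foxa2, Cebpa, Id2, Foxa1 and Etv5. Those of Id2, the most abundant factor, Foxa1, Elf3, which had the largest drop into the early alveolar stage, and Cebpa, which did not pass the test of age, are printed 5′ to 3′ on the strand of the gene, with capitals for every searched motif on either strand.
Id2 (chr12:25096043-25096342, minus strand): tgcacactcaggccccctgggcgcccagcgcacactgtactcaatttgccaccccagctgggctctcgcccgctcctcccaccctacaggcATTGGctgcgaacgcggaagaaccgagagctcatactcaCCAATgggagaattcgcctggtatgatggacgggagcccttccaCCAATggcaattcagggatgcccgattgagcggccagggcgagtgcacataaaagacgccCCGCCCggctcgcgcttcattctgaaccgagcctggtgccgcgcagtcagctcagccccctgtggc
Foxa1 (chr12:57546062-57546361, minus strand): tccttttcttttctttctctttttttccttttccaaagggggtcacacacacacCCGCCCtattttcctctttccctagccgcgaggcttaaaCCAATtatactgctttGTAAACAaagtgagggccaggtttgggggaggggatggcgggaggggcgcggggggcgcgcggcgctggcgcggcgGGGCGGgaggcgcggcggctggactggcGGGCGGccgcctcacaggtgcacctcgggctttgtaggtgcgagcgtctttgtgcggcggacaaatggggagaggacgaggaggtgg
Elf3 (chr1:135258423-135258722, minus strand): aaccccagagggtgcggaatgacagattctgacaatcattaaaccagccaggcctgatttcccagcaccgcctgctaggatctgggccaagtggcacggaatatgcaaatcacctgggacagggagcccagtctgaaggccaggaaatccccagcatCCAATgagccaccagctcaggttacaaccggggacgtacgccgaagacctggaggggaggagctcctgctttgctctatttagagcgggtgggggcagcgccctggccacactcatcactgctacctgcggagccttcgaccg
Cebpa (chr7:35119043-35119342, plus strand): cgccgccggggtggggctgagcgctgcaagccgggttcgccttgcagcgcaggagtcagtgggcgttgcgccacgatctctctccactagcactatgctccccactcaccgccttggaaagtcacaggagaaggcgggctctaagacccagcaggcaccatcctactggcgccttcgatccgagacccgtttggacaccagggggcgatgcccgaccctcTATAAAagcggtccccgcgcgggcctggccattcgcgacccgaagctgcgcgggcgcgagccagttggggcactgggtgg

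The search covered both strands for 10 motifs. The letters and the share of the 32817 promoters outside chromosome 18 with at least 1 match were TGTTTAC for forkhead factors (3.65%), AGATAA for GATA factors (11.2%), TTGCNNAA for C/EBP factors (10.8%), CCGGAAG for ETS factors (8.86%), AACCGGTT for grainyhead factors (0.146%), ACAATGG for SOX factors (3.67%), CTCAAG for NKX2 factors (15.9%), CCAAT for the CCAAT box (37.4%), GGGCGG for the GC box (35.6%) and TATAAA for the TATA box (13.6%). The Foxa1 window lies inside the gene coordinates given above, so its start is an internal one. That window holds a forkhead match 141 bases before this start, and 3 GC boxes. A forkhead match also stands in a window of Etv5, 183 bases before the start. The Id2 window has 3 CCAAT boxes, 159, 120 and 76 bases before the start, and that of Elf3 has 1, at 93 bases. Cebpa alone of the 4 printed windows has a TATA box, 30 bases before the start. These matches describe the letters of the windows only. GC made up 63.3% of the Id2 window, 62.3% of that of Foxa1, 59.0% of that of Elf3 and 67.3% of that of Cebpa, against a median of 52.7% over the same 32817 promoters.

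The comparison of E18.5 with E16.5 asks how the factors stood before and during the prenatal rise of surfactant genes. Sox9 was at 22.6 and 22.07 FPKM at E16.5 and at 7.436 and 7.517 FPKM at E18.5. Cebpa, which in type 2 cells drives surfactant and lipid genes, went the other way, from 10.12 and 11.2 FPKM to 24.23 and 22.68 FPKM. For both genes the animals of an age lay close together. Elf3 was at 4.045 and 6.119 FPKM at E16.5 and at 18.24 and 13.99 FPKM at E18.5, and Gata6 at 21.93 and 23.79 FPKM against 12.92 and 12.81 FPKM. Foxa1 (13.58 and 18.4 against 11.89 and 17.5 FPKM), Etv5 (48.27 and 30.83 against 39.94 and 32.75 FPKM) and Foxa2 (14.5 and 11.7 against 13.38 and 23.35 FPKM) overlapped between the ages. Id2 stayed within 80.2 to 95.02 FPKM, also with overlap, and Grhl2 was at 8.883 and 9.99 against 12.21 and 11.2 FPKM. The ages did not overlap for Sox9, Cebpa, Elf3, Gata6 and Grhl2. With 2 animals an age this often arises by chance, and its share over all genes is not reported here.

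In the test none of the 9 factors passed the threshold between E16.5 and E18.5 in limma, and 2, Cebpa and Sox9, had an unadjusted p under 0.05, where 2.52% of 14616 genes were higher and 2.00% lower at an adjusted p under 0.05. The log2 fold change, here and below on the scale of log2(FPKM + 1), was 1.07 ± 0.32 (SE) for Cebpa with an adjusted p of 0.063, -1.46 ± 0.56 for Sox9 with 0.161, 1.50 ± 0.76 for Elf3 with 0.326 and -0.78 ± 0.39 for Gata6 with 0.321. The other 5 lay between -0.12 and 0.42. With 2 animals an age the spread is borrowed from all ages, and 2 of these results sit near the threshold. Cebpa passed it under 5 of the alternatives, such as median ratio scaling with 1.13 and an adjusted p of 0.0399, and Sox9 passed it in a fit of the 4 prenatal libraries alone with an adjusted p of 0.0401.

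Markers of other cells differed between the same libraries. The 9 cartilage markers with a line summed to 17.87 and 20.65 FPKM at E16.5 and to 1.789 and 4.146 FPKM at E18.5, and Col2a1, the main cartilage collagen, fell by 2.13 on the log2 scale (adjusted p 0.00522). The 5 heart muscle markers summed to 995.4 and 2068 FPKM at E16.5 and 31.58 and 102.4 FPKM at E18.5. Gata4, a cardiac relative of Gata6, fell by 2.64 (adjusted p 0.00206). The 7 macrophage and monocyte markers with a line summed to 72.37 and 90.19 FPKM at E16.5 and 524.2 and 1279 FPKM at E18.5. Of these 7 only Lyz2, which is also on the list of epithelial targets, passed the test (57.7 against 872 FPKM). The others did not, with log2 fold changes of 1.68 for Cd68, 0.76 for Marco, 0.44 for Chil3, 0.14 for Csf1r, -0.09 for Mrc1 and -0.28 for Itgax. The part of these cells in the values of Sox9, Gata6 and Cebpa was not tested. The mean log2(FPKM + 1) of 15 general epithelial markers, taken up below, was also higher at E18.5, at 4.945 and 4.965 against 4.431 and 4.54. Its part in the values of the factors and their targets was not tested.

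Genes listed here as targets of these factors mostly rose over the same interval. The list was chosen with earlier results of these data known and shares genes with the type 1, type 2 and airway marker lists. Whether the factors act on them in these septa was not tested. Of 28 targets, 19 were higher at E18.5 and none lower, with a median log2 fold change of 2.18 against 0.12 for the 9 factors and -0.10 for all genes. Sftpd, a surfactant collectin of innate defence, was at 0.54 ± 0.764 FPKM at E16.5 and 98.7 ± 37.9 FPKM at E18.5 (SD, n = 2), a log2 fold change of 6.06 (adjusted p 7.5e-08). Scd1, a desaturase that makes lipids for surfactant, rose by 4.90 (adjusted p 7.7e-08), from 8.25 to 278 FPKM. Sftpa1 rose by 4.09 (adjusted p 2.4e-07) and Ager, the receptor that marks type 1 cells, by 3.47 (adjusted p 2.7e-07). The surfactant protein gene with the highest level, Sftpc, did not pass the test, with 2.09 and an adjusted p of 0.179. Scgb1a1, a secretory gene of airway club cells, was among the 19, and the airway markers summed to 210.1 and 328.4 FPKM at E16.5 and to 1113 and 1269 FPKM at E18.5. Among 23 genes of tip growth and FGF signalling, 3 were lower and none higher, namely Clu, the growth regulator Mycn (-2.16, adjusted p 0.0264) and Col2a1. Col2a1 is also on the list of cartilage markers. Of 30 genes of epithelial adhesion and junctions, Itgb6 was higher (2.05, adjusted p 0.00114) and the fetal claudin Cldn6 lower (-3.32, adjusted p 0.00944).

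**Figure D2:**
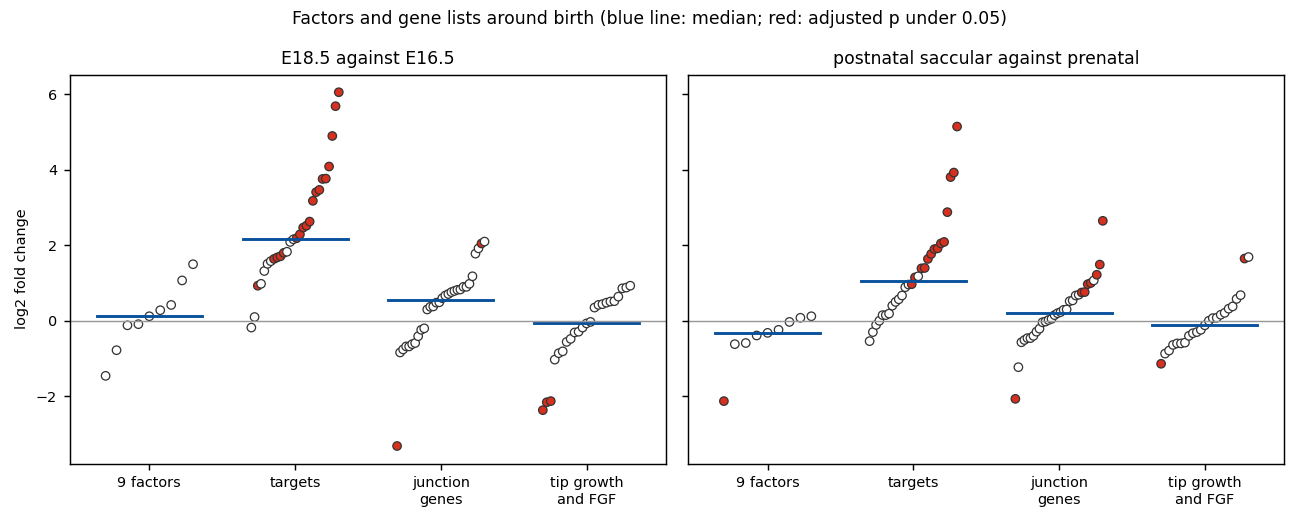
Log2 fold change (y axis, log2(FPKM + 1) scale) of each tested gene among the 9 factors, 28 targets, 30 junction genes and 23 tip growth and FGF genes (x axis), ordered within a group, for E18.5 against E16.5 (left) and the postnatal saccular against the prenatal group (right); blue lines are medians and red points have an adjusted p under 0.05. The targets have a median of 2.18 on the left and 1.06 on the right, and the 9 factors 0.12 and -0.32.

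From the prenatal to the postnatal saccular group, the step over birth, Sox9 was the 1 factor that changed. Its 4 prenatal values, given above, run from 7.436 to 22.6 FPKM, and the 8 postnatal values had a lowest of 0.9051, a median of 2.396 and a highest of 4.011 FPKM, so the groups did not overlap. Sox9 fell by 2.13 ± 0.38 (adjusted p 2.6e-04), where 6.81% of all genes were lower and 9.11% higher. Set against only the E18.5 animals its value was -1.40, with an adjusted p of 0.0676. Of the cartilage markers 2 of 3 tested were lower over birth, Col11a1 (-1.23, adjusted p 0.00607) and Col2a1 (-1.14, adjusted p 0.0332), as were 2 of 5 heart muscle markers, and none of either list with only E18.5 before birth. The part of these cells in the drop of Sox9 was not tested. Etv5 was at 37.95 ± 7.92 FPKM before birth (SD, n = 4) and 24.74 ± 4.21 FPKM after it (n = 8), a log2 difference of -0.59 ± 0.22 that missed the threshold with an adjusted p of 0.0584 and passed it in 5 alternatives.

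Id2 had 89.86 ± 6.59 FPKM before birth and 60.97 ± 19.3 FPKM after it (SD), with an adjusted p of 0.169. Among the surfactant regulators, Foxa2 averaged 15.73 ± 5.21 and 17.87 ± 6.85 FPKM, Gata6 17.86 ± 5.82 and 17.02 ± 2.55 FPKM, and Cebpa 17.06 ± 7.43 and 17.44 ± 5.16 FPKM before and after birth, each with an adjusted p of at least 0.904. The prenatal mean of Cebpa joins the 2 levels of E16.5 and E18.5. From 24.23 and 22.68 FPKM at E18.5 it stood at 11.13 and 10.89 FPKM at P0.5, and its mean was 22.48 FPKM at P2.5. That interval was not tested on its own. Set against only the E18.5 animals, the postnatal saccular group differed by -0.46 for Cebpa and by 0.37 for Gata6, neither past the threshold. Foxa1, Elf3 and Grhl2 had log2 fold changes of -0.32, -0.24 and -0.39 and did not pass the test. Of the 28 targets, 14 were higher and none lower over this step, led by the water channel Aqp5 (3.81, adjusted p 7.7e-07). When only E18.5 stood for the time before birth, 3 targets were higher, namely Ager, Aqp5 and Sftpb, and 1, Lamp3, was lower. The FGF feedback inhibitor Spry1 rose by 1.65 (adjusted p 3.2e-05), 1 of 2 changed genes of the tip growth and FGF list. The other, Col2a1, also a cartilage marker, was lower. Of the 30 junction genes 7 were higher, such as Krt7 (1.49, adjusted p 1.0e-04), and 1 lower, Cldn6. Cldn6 and Col2a1 were already low at E18.5, at 2.30 and 0.235 FPKM, against 1.88 and 0.185 FPKM after birth. Set against only E18.5, 3 junction genes were higher (Cldn3, Krt7 and Spint2) and none lower, and of the tip growth and FGF genes Spry1 was higher and Fgfr2 lower.

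The step into the early alveolar group, the time when new septa form, was small across the genome, with 0.527% of genes higher and 0.937% lower. Elf3, an ETS factor of differentiated epithelia, was the 1 factor to change. In the postnatal saccular group it had a lowest of 2.311, a median of 9.69 and a highest of 14.19 FPKM. In the early alveolar group its values were 3.597 and 4.162 FPKM at P4, 1.14 and 5.321 FPKM at P5, 0.6388 and 2.362 FPKM at P7, and 4.287 FPKM in P10 pup f, with P10 pup a listed at 0. The groups overlapped in part, and Elf3 fell by 1.45 ± 0.38 (adjusted p 0.0471). This call was lost in 6 alternatives, among them the fit without P10 pup a and both P19 animals (-1.21, adjusted p 0.0921), and in 15 of the 29 fits that left out 1 library.

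The remaining factors had log2 fold changes of -0.68 to 0.35 in this step, and 7 of those 8 were below 0. Grhl2, which switches on junction genes, averaged 7.98 ± 2.06 FPKM in the postnatal saccular and 4.70 ± 1.18 FPKM in the early alveolar group (SD, n = 8 each), with an adjusted p of 0.133. Cebpa had 17.44 ± 5.16 and 11.66 ± 4.66 FPKM, with an adjusted p of 0.27. Foxa2 had a median of 18.34 FPKM in the first group and in the second 12.72 and 16.29 FPKM at P4, 17.45 and 14.21 FPKM at P5, 23.7 and 8.805 FPKM at P7, and 11.83 FPKM in P10 pup f, with P10 pup a listed at 0 and wide overlap between the groups. Of the 30 junction genes 11 were lower and none higher, with a median of -0.82, such as the claudins Cldn3 (-1.54, adjusted p 7.3e-04) and Cldn4 (-2.11, adjusted p 0.00617). Of the 28 targets 4 were lower and none higher: Abca3, Fasn, Cldn18 and Ctsh. Fgfr2, the receptor of the tip signal Fgf10, fell by 0.58 (adjusted p 0.0356), and the feedback inhibitor Spry4 rose by 0.80 (adjusted p 0.0221).

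Into the late alveolar group, as septation ends, Sox9 fell again. It had a lowest of 1.237, a median of 2.638 and a highest of 10.6 FPKM in the early alveolar group, with the highest in P10 pup a. In the late alveolar group the values were 1.227 and 0.4295 FPKM at P13.5, 0.4837 and 1.035 FPKM at P15, 1.255 FPKM in P19 pup f, and 0.3567 and 0.594 FPKM at P23, with P19 pup d and P28 pup c listed at 0. The groups met at their edges only. Sox9 fell by 1.41 ± 0.30 (adjusted p 0.00216), where 7.47% of genes were lower and 3.89% higher (5.91% and 5.07% with quantile normalization), and by 1.19 when P10 pup a and both P19 animals were left out (adjusted p 0.00797). Gata6 went from 11.73 ± 3.36 FPKM (SD, n = 8) to 7.83 ± 3.16 FPKM (n = 9), a difference of -0.57 ± 0.20 on the log2 scale with an adjusted p of 0.0675. The remaining 7 factors lay between -0.38 and 0.39.

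Of the tip growth and FGF list, 8 of 23 genes were lower in this step and none higher. They included the mesenchymal ligand Fgf18 (-2.43, adjusted p 0.00124), the epithelial ligand Shh (-1.52, adjusted p 0.00451), Spry4 (-0.76, adjusted p 0.00469) and Spry1 (-0.83, adjusted p 0.00512). The targets did not share this direction. Of 28, 3 were higher and none lower: Cd36 (1.27, adjusted p 0.00174), Cftr (2.11, adjusted p 0.0044) and Lyz2, which macrophages also make. Of the junction list only Elf5 changed, and fell by 1.19 (adjusted p 0.0244). Elf5 is an ETS factor, not a junction protein, and is also on the list of relatives of the factors.

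Over postnatal life as a whole, from the postnatal saccular to the late alveolar group, 4 of the 9 factors fell and none rose, where 7.15% of genes were lower and 4.41% higher. The split of all genes moved with the scaling, to 5.15% lower and 6.01% higher with quantile normalization and to 5.67% and 5.56% with median ratio scaling, under which the same 4 factors fell. The median of the 9 was -0.71, and that of all genes -0.16. Gata6 had the smallest p of the 9, and went from a lowest of 13.25, a median of 16.92 and a highest of 20.22 FPKM to a lowest of 3.93, a median of 7.206 and a highest of 12.69 FPKM, with no overlap. It fell by 1.10 ± 0.20 (adjusted p 4.5e-04). Sox9 fell by 1.06 ± 0.30 (adjusted p 0.0194) from the low level it had after birth. The log2(FPKM + 1) scale understates the change of such low genes. Id2 went from 26.62, 57.83 and 91.98 FPKM (lowest, median, highest) to 15.53, 29.54 and 77.65 FPKM and fell by 0.85 ± 0.24 (adjusted p 0.0176). Its groups overlapped through P1.5 pup d on the low side and P15 pup c on the high side. Grhl2 went from 5.194, 8.145 and 10.15 FPKM to 2.953, 4.18 and 10.92 FPKM and fell by 0.71 ± 0.21 (adjusted p 0.024). Its highest late value, in P19 pup d, lay above all values of the earlier group, while the other 8 late values did not exceed 5.473 FPKM. The call of Id2 was lost when P10 pup a and both P19 animals were left out (-0.70, adjusted p 0.0618), and those of Sox9 (-0.75, adjusted p 0.113) and Grhl2 (-0.60, adjusted p 0.0664) with quantile normalization. Id2 (adjusted p 0.0514) and Grhl2 (adjusted p 0.0572) also lost theirs when the fit held no other group.

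The other 5 factors did not pass the test over this span. Elf3 (-1.06 ± 0.37, adjusted p 0.0599) and Foxa1 (-0.60 ± 0.21, adjusted p 0.06) lay just outside the threshold. Foxa1 averaged 12.5 ± 3.93 FPKM after birth (SD, n = 8) and 7.88 ± 3.00 FPKM in the late alveolar group (n = 9). Foxa2 (-0.49, adjusted p 0.469), Etv5 (-0.22, adjusted p 0.435) and Cebpa (-0.22, adjusted p 0.599) had smaller differences. Of the pathway lists, 10 of 23 tip growth and FGF genes were lower and none higher, led by the fetal RNA binding protein Igf2bp3 (-1.71, adjusted p 7.8e-05) and by Wnt7b (-1.46, adjusted p 2.8e-04). Of the junction list 16 of 30 genes, the ETS factor Elf5 among them, were lower and none higher, led by Cldn4 (-2.85, adjusted p 7.2e-06). Of the 28 targets 5 were lower, such as Lpcat1 (-0.88, adjusted p 0.00379), and 2 were higher, Cd36 and Cftr.

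**Figure D3:**
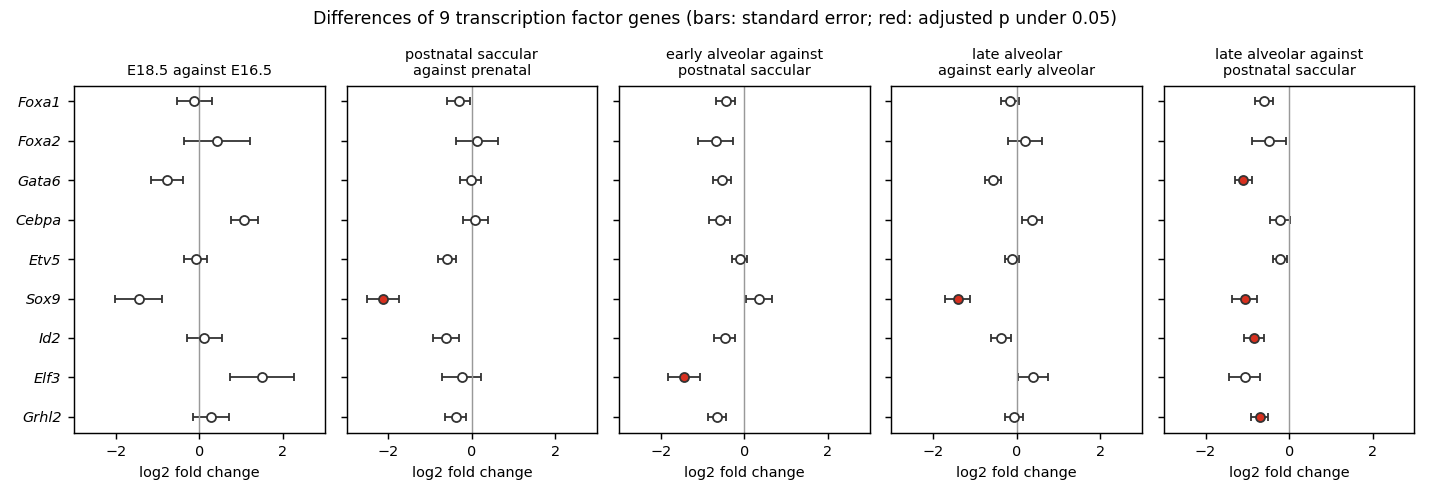
Log2 fold change (x axis, log2(FPKM + 1) scale) of the 9 factors (y axis) in each of 5 comparisons, with bars of 1 standard error; red points have an adjusted p under 0.05 in limma over 14616 genes. Sox9 is red at birth (-2.13), into the late alveolar stage (-1.41) and over postnatal life (-1.06), Gata6, Id2 and Grhl2 over postnatal life, and Elf3 into the early alveolar stage (-1.45).

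The level of general epithelial markers changed over the same time. All 15 of these markers are also on the list of junction genes, so their drop repeats part of that result. Of the 15, 8 were lower into the early alveolar group and 9 over postnatal life. The mean log2(FPKM + 1) of 15 markers of all epithelium, such as Epcam and Cdh1, was 4.72 ± 0.275 in the prenatal, 5.00 ± 0.266 in the postnatal saccular, 4.05 ± 0.429 in the early alveolar and 4.17 ± 0.276 in the late alveolar group (SD, n = 4, 8, 8 and 9). Into the early alveolar group it fell by 0.95 (two-sided exact permutation test, p = 0.000466) and lay 0.83 lower in the late alveolar group (difference -0.83, p = 0.000165). It did not differ beyond its spread between the early and the late alveolar group (0.11, p = 0.512) or over birth (0.28, p = 0.113, all by the same exact test). The prenatal mean joins a level of 4.486 at E16.5 and 1 of 4.955 at E18.5 (n = 2 each). From the postnatal saccular to the late alveolar libraries, the median summed level went from 14964 to 14536 FPKM for 8 type 2 markers and from 1820 to 1754 FPKM for 8 type 1 markers. Of these, 1 type 2 marker, Abca3, was lower and no type 1 marker changed, with list medians of -0.11 and -0.29. In septa, fewer epithelial cells and less RNA per cell cannot be told apart.

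The mean of the 15 general markers was also set as a covariate. It differs itself between the postnatal saccular (5.00 ± 0.266) and late alveolar groups (4.17 ± 0.276, SD), and its slope comes from all 29 libraries. This fit therefore cannot sort the factors by whether they follow epithelial content. In it Gata6 (-1.12, adjusted p 0.0277) and Sox9 (-1.59, adjusted p 0.0277) were lower in the late alveolar than in the postnatal saccular group. Id2 went to -0.48 (adjusted p 0.478), while Grhl2 kept its size with a wider error (-0.67, adjusted p 0.235). Elf3 went from -1.06 to 0.20 and Foxa2 from -0.49 to 0.62, neither past the threshold. Elf3 in the step into the early alveolar stage went from -1.45 to -0.02 (adjusted p 0.996). Other cell types changed too over postnatal life: 8 fibroblast markers summed to 583.1 to 1011 FPKM in the postnatal saccular and 391.9 to 675.5 FPKM in the late alveolar libraries, and 4 mesothelial markers to 88.46 to 226.6 and 8.666 to 54.23 FPKM. Of these lists 4 of 8 and 2 of 4 genes were lower, and 1 fibroblast gene was higher. The 2 mesothelial genes were Msln and Krt19, and Krt19 is also 1 of the 15 epithelial markers. Of the neutrophil markers 5 of 6 were lower, and of the tested lymphocyte markers 5 of 7 were higher. Of the macrophage and monocyte markers 1 of 7 was higher, and of the endothelial markers 1 of 6. The part of these cells in the drop of Gata6 and Sox9 was not tested.

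**Figure D4:**
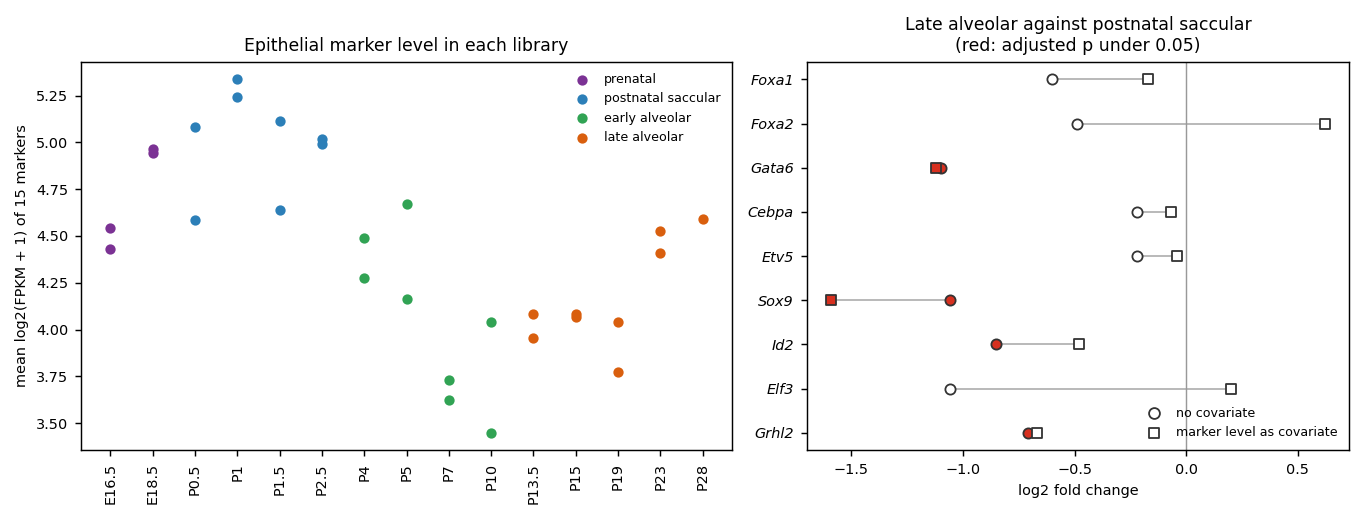
Left, mean log2(FPKM + 1) of 15 epithelial markers (y axis) in each library by age (x axis), coloured by stage group, with a drop after P2.5 and the lowest value, 3.449, in P10 pup a. Right, log2 fold change (x axis) of the 9 factors (y axis) between the late alveolar and the postnatal saccular group, without (circles) and with (squares) the marker level as a covariate, red where the adjusted p is under 0.05, which holds for both symbols of Gata6 and Sox9.

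A test free of the stage bounds asked whether a gene followed any smooth course over age in the 29 libraries. It called 30.7% of all genes and 7 of the 9 factors. Sox9 had the largest statistic (F = 17.4, adjusted p 3.2e-05), followed by Gata6 (F = 12.1, adjusted p 3.6e-04), Id2 (F = 9.91, adjusted p 0.0012), Grhl2 (F = 7.10, adjusted p 0.00638), Foxa1 (F = 6.46, adjusted p 0.00966), Elf3 (F = 5.20, adjusted p 0.0223) and Etv5 (F = 4.58, adjusted p 0.0347). Foxa2 (adjusted p 0.188) and Cebpa (adjusted p 0.962) were not called. By age means, Cebpa ranged from 7.334 FPKM at P7 to 23.45 FPKM at E18.5. In postnatal libraries alone Gata6 and Sox9 were called, and with the epithelial marker level as a covariate Gata6, Id2 and Sox9.

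Genes whose levels ranked most like those of a factor over the 29 libraries were sought among 8989 genes with a mean of at least 5 FPKM, as a description, since all values share libraries and age. Sox9 was closest to Trim28, a corepressor of zinc finger proteins, with a Spearman rho of 0.818 and a Pearson r on the log2 scale of 0.842, then to Gtf3c4 and Rhobtb3 (rho 0.807 and 0.780). Gata6 was closest to the sphingosine receptor S1pr2 (rho 0.882, r 0.846), then to Dtx4 and Cdon (rho 0.840 and 0.809). Id2 was closest to Gapdh, of glycolysis (rho 0.848, r 0.764), then to Hdlbp (rho 0.819). Keratins came up for Foxa1, with Krt18 (rho 0.773, r 0.788) after Eif3e and Rpl4 (rho 0.787 and 0.782), and for Elf3, with Krt19 (rho 0.756, r 0.773) after Igf2bp2 and B4galt1 (rho 0.774 and 0.770).

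Cebpa was closest to Lgi3, Niban2 and Hdac5 (rho 0.753, 0.704 and 0.698), Foxa2 to Dag1, Rpl38 and Gipc2 (rho 0.735, 0.711 and 0.709), Grhl2 to Myh7, Braf and Vldlr (rho 0.837, 0.808 and 0.787) and Etv5 to Rmnd5a, Gsta4 and Vhl (rho 0.684, 0.652 and 0.648). Etv5 thus had the lowest best rho of the 9 factors and Gata6 the highest. The Pearson r of the closest gene was lowest for Foxa2 with Dag1, at 0.407. It was 0.648 for Grhl2 with Myh7, 0.655 for Foxa1 with Eif3e and 0.665 for Cebpa with Lgi3. For Etv5 with Rmnd5a it was 0.706, and for Elf3 with Igf2bp2 0.735.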

How the data were processed

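Alveolar septa of 29 C57BL/6 mice were cut by laser capture and sequenced 1 library per animal. Per the labels and the submitters' notes the authors made stranded libraries of RNA depleted of ribosomal RNA, aligned reads to mm10 with STAR 2.5.1 and deposited FPKM values from Cufflinks 2.2.1; settings and annotation are not given in the sources used here. FPKM keep no depth, so the spread between animals stands in for precision.

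The matrix holds 24486 lines for 22779 gene IDs, of which 1226 stand on more than 1 line; the line with the highest mean was kept. Symbols came from RefSeq (GRCm38.p6) for 22718 IDs, and all 9 factors with a line passed the filter of at least 1 FPKM in at least 4 libraries (14616 genes). On log2(FPKM + 1), 4 stage groups were compared in 1 fit with limma 3.58.1 (R 4.3.3, trended empirical Bayes), E18.5 with E16.5 in a fit of 15 age groups, and age with limma's F test over a spline (natural cubic, 3 degrees of freedom) of the log2 of days from conception, birth being day 19. All adjusted p values are limma's, by Benjamini-Hochberg over all genes tested, with a threshold of 0.05. The design text names 14 of the ages and not E18.5, which the labels of 2 libraries give. Tables and figures were made in Python 3.11.15 with pandas 2.3.3, numpy 2.4.6, matplotlib 3.10.9 and scipy 1.17.1, and the fit was tested on simulated data.

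The factors and the lists of targets, tip growth and FGF genes, junction genes, relatives, other regulators and cell markers were chosen with earlier results of these data known, and several lists share genes. The text names all factors in every comparison, up to 4 genes of a list with the smallest p, called genes against the rest of a list, and the 3 genes most like each factor; some genes these rules take are not reported here. Sftpc, Scgb1a1, Aqp5 and Spry1 beside other named genes, and list genes given where 5 or fewer were called, were named after their values were seen. Pup letters pair no animals across ages. Alternatives were a pseudocount of 0.1, no filter, median ratio scaling, quantile normalization, summed lines, sex of the labels or epithelial marker level as a covariate, array quality weights, leaving out P10 pup a with both P19 animals (the 3 libraries with most zeros), 15 age groups, only the groups compared, E18.5 alone, postnatal libraries, the 4 prenatal libraries and each library left out in turn.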

Additional observations from a re-analysis of the deposited data

Results flagged for a closer look

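In 36 groups of 4 to 9 libraries (each factor in each stage group), 3 held a value whose gap to the nearest other value was past Dixon's limit, a share that chance gives for about 1 in 20 groups. Sox9 in P10 pup a was at 10.6 FPKM, while the other 7 early alveolar libraries had 1.237 to 4.308 FPKM. In the same library 416 coding genes of usual expression were listed at 0, Foxa2 and Elf3 among them, and the cartilage markers summed to 1.589 FPKM. Elf3 in P15 pup c was at 8.904 FPKM, against 1.257 to 3.851 FPKM in the other 8 late alveolar libraries, and Id2 had its highest late alveolar value, 77.65 FPKM, in this animal too. Grhl2 in P19 pup d was at 10.92 FPKM, against 2.953 to 5.473 FPKM in the other 8 late alveolar libraries. In that library 577 coding genes of usual expression were listed at 0, Sox9 was listed at 0, and Id2 had its lowest value of all 29 libraries, 15.53 FPKM.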

How the results depend on the processing

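Of 2151 values of single factors under the alternatives, 2037 kept their direction and side of the threshold, 48 lost and 33 gained a call, and 33 turned direction, none of these past the threshold. Birth: the count of 1 rose to 2 (Etv5 and Sox9) with median ratio scaling, with the epithelial marker level as a covariate, without P10 pup a and both P19 animals, with 15 age groups and with only the 2 groups, and was 0 with E18.5 alone; leaving out 1 library gave 1 to 2 (2 without P2.5 pup i or P13.5 pup d). Into the early alveolar stage: the count of 1 was 0 with a pseudocount of 0.1, no filter, sex or marker level as a covariate, without those 3 libraries and with only the 2 groups, 3 (Elf3, Gata6 and Grhl2) with array weights, 2 (Cebpa and Elf3) with 15 age groups, and 0 to 1 leaving out 1 library. Elf3 had an adjusted p of 0.0274 to 0.101 over these leave-outs, and -1.21 with 0.0979 without P10 pup a. Into the late alveolar stage: the count of 1 was 2 (Gata6 and Sox9) with 15 age groups, and 1 to 2 leaving out 1 library (2 without P7 pup d, P13.5 pup d, P19 pup d or P23 pup e). Over postnatal life: the count of 4 was 2 with quantile normalization (Gata6 and Id2) and with the marker level as a covariate (Gata6 and Sox9). Id2 lost its call also without the 3 libraries (-0.70, adjusted p 0.0618) and with only the 2 groups (0.0514), and Grhl2 with only the 2 groups (0.0572) and without P2.5 pup h (0.0531) or i (0.0536). Elf3 gained one with array weights (0.00352), with only the 2 groups (0.0358) and without P0.5 pup f, P1.5 pup d, P10 pup a or P15 pup c, and Foxa1 with array weights (0.0121) and without P1.5 pup d, P15 pup e or P28 pup c. Quantile normalization moved the median of all genes by 0.14 over postnatal life and 0.105 into the late alveolar stage. E18.5 against E16.5: the count of 0 (1122 genes higher and 1365 lower at an unadjusted p under 0.05 by limma) was 1 (Cebpa) with no filter, median ratio scaling, quantile normalization, array weights or without the 3 libraries, 1 (Sox9) with only the prenatal libraries, and 0 to 1 leaving out 1 library (1 without P19 pup d or f). Age: the count of 7 was 3 with the marker level as a covariate and 2 in postnatal libraries, Elf3 lost its call also with quantile normalization (0.064), and Etv5 lost its call without E16.5 animal 9 (adjusted p 0.171) and 6 other libraries.

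Directions that turned were all of small or uncalled values. With the marker level as a covariate they were Foxa2 at birth (-0.26), Foxa1 (0.05), Foxa2 (0.58), Etv5 (0.09) and Sox9 (-0.25) into the early alveolar stage, Foxa2 (0.62) and Elf3 (0.20) over postnatal life, and Foxa2 (-0.57) and Id2 (-0.17) for E18.5 against E16.5. With E18.5 alone at birth they were Foxa2 (-0.09), Gata6 (0.37) and Cebpa (-0.46); with array weights Gata6 (0.03) and Elf3 (0.02) at birth and Foxa2 (-0.06) into the late alveolar stage; without the 3 libraries Foxa2 (-0.22), and with quantile normalization Grhl2 (0.05), at that stage; with quantile normalization Foxa1 (0.004) for E18.5 against E16.5. Leaving out 1 library, the range was -0.12 to 0.27 for Cebpa, -0.57 to 0.07 for Elf3, -0.002 to 0.31 for Foxa2 and -0.16 to 0.12 for Gata6 at birth, -0.41 to 0.22 for Etv5 and -0.38 to 0.14 for Foxa1 for E18.5 against E16.5, and -0.30 to 0.36 for Foxa2 and -0.20 to 0.01 for Grhl2 into the late alveolar stage. Where the construction of an alternative does not show it, the cause was not tested. No paired analysis was possible because the animals carry no number shared between ages.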

Other observations

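Close relatives of the factors were counted in the same comparisons. Of all genes, 9.11% were higher and 6.81% lower over birth, and 0.527% and 0.937% into the early alveolar stage. The shares were 3.89% and 7.47% into the late alveolar stage, 4.41% and 7.15% over postnatal life, and 2.52% and 2.00% for E18.5 against E16.5. Of 30 tested relatives, 5 were higher and 1 lower over birth, namely Gata2 (2.01, adjusted p 8.4e-06), a GATA factor of blood and endothelial cells, Foxp1 (0.71, adjusted p 9.8e-04), Id1 (1.26, adjusted p 0.00158), Foxp4 (1.51, adjusted p 0.00395) and Id3 (1.10, adjusted p 0.0283) on the higher side, and Foxp2 (-1.47, adjusted p 0.00668) on the lower. None passed the threshold into the early alveolar stage in limma, where 7 had an unadjusted p under 0.05. Into the late alveolar stage 4 were higher and 6 lower. Gata5 fell by 1.86 (adjusted p 5.4e-05), from 25.0 ± 10.3 FPKM (SD, n = 8) to 6.90 ± 5.08 FPKM (n = 9), and Sox4 by 1.26 (adjusted p 0.00791), while Gata2 (1.15, adjusted p 5.1e-04) and Cebpg (0.49, adjusted p 0.00561) rose. Over postnatal life 5 relatives were higher and 3 lower, and the ETS factors closest to Elf3 parted: Elf5 fell by 1.98 (adjusted p 2.6e-04) and Ehf rose by 0.87 (adjusted p 0.00603). For E18.5 against E16.5 Gata4 alone passed the threshold.

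For the other epithelial regulators the same shares of all genes apply, such as 9.11% higher and 6.81% lower over birth. Of 30 of them, 7 were higher and 3 lower over birth, among them Irx1 (1.64, adjusted p 4.8e-05) and Stat3 (1.03, adjusted p 1.5e-04) on the higher and Nfib (-0.47, adjusted p 0.00633) on the lower side. Against the E18.5 animals only, 2 were higher, Irx1 and Stat3, and 1 lower, Nr3c1, the glucocorticoid receptor. Tfcp2l1, a grainyhead relative, rose by 2.47 from E16.5 to E18.5 (adjusted p 0.00341) and was the 1 regulator that fell into the early alveolar stage (-1.54, adjusted p 0.0186). Into the late alveolar stage 4 fell and none rose: Nfib (-0.64, adjusted p 2.1e-05), Zfpm2, the GATA cofactor also called FOG2 (-1.50, adjusted p 4.7e-04), Mycn (-1.46, adjusted p 0.00534) and Irx5 (-1.02, adjusted p 0.0294). Nfib went from 103 ± 7.89 FPKM (SD, n = 8) to 66.2 ± 8.71 FPKM (n = 9), with no overlap between the groups. Over postnatal life 7 regulators fell and none rose, among them Tead1 (-0.65, adjusted p 0.00118) and Srebf2, of cholesterol synthesis (-0.85, adjusted p 0.00675).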
